A study of Mus musculus with 656 samples.

Results

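The genes described here are the clustered histone genes of the mouse, the replication-dependent H1, H2A, H2B, H3 and H4 genes that carry the Hist1h, Hist2h, Hist3h and Hist4h symbols. The members were chosen by symbol, without pseudogenes, and each gene of the table that met the name rule is included whatever its level. The group as a whole was selected on earlier results of these libraries, in which several members had more reads at 100 µM than at 0 µM of the inhibitor. The comparisons between inhibitor concentrations are therefore given as a description of the members, with levels, differences and standard errors (SE). The table of 22070 genes held 64 members: 51 of the Hist1 cluster on chromosome 13, 10 of the Hist2 cluster on chromosome 3, 2 of the Hist3 cluster on chromosome 11, and Hist4h4 on chromosome 6. By family there were 6 H1, 18 H2A, 16 H2B, 12 H3 and 12 H4 genes. A further 3 coding genes that meet the name rule (Hist1h2bm, Hist1h4m and Hist1h2bh) were not analysed here.

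The RNA came from 3T3 cells, an immortalised mouse fibroblast line, and was sequenced by TagSeq, which reads fragments near the poly(A) tail of polyadenylated RNA. For 1 h the cells were held in 0, 25, 50 or 100 µM SC-514, which inhibits IKKβ, a kinase that activates NF-κB. A cytokine followed, either 1 ng/ml IL-1β or 10 ng/ml TNF-α, and RNA was taken 15, 30, 60, 120 or 360 min later, which makes 20 groups per stimulus label. The remaining group was unstimulated and received no inhibitor. Each of the 41 groups held 4 libraries, numbered 1 to 4, and the labels do not say if each was its own culture, which means that a p-value measures only library-to-library spread, possibly technical. No group received the inhibitor without a stimulus, and the vehicle given at 0 µM is not stated. For 640 of the 656 sample records the title and the name of the count column open with different prefixes. Libraries were assigned by the stimulus label and by the column that the record names, so "IL-1β label" and "TNF-α label" below mean those labels, which cannot be told apart from the column prefix.

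Total counts ran between 928906 and 2469454 per library (median of all libraries 1282459), except in 2 libraries of number 1 with 12191 counts (IL-1β label, 50 µM, 30 min) and 3839 counts (TNF-α label, 50 µM, 120 min). The 2 shallow libraries held 4 and 1 counts of clustered histone genes, against 206 to 2303 in the others, and results are given with and without them in the closing section. A floor of 3 counts in a library corresponds to 1.21 to 3.23 CPM, a gene’s counts scaled to the same library total, and covers counting error only. All 10 fibroblast marker genes examined were measured, with summed group levels between 7715 and 10373 CPM. At 100 µM against 0 µM over 5 times, 3 of these 10 rose and 6 fell under the IL-1β label (median log2 difference -0.09), and 2 rose and 8 fell under the TNF-α label (median -0.18). At 360 min 4 fell under the IL-1β label (median -0.13) and 9 under the TNF-α label (median -0.41). Rose and fell mean called by the edgeR test described below. It called 55.3% (IL-1β label) and 50.3% (TNF-α label) of all genes over 5 times, and 29.5% and 26.8% at 360 min. The part of this marker shift in the histone values was not tested. Of 16 listed markers of other cell types, 13 were in the table and 7 of these stayed under 1 CPM in every group (Epcam, Krt8, Cdh1, Cdh5, Cd3e, Adgre1 and Adipoq). Higher group means were reached by other markers, up to 24.1 CPM for Pecam1, 22.5 for Cd68, 12.04 for Des, 4.85 for Csf1r and 2.22 for Ptprc. The lowest group means of these genes were 2.28, 2.58, 5.90, 1.32 and 0 CPM. Group means include the 2 shallow libraries, where a single read weighs many CPM. Whether the highest means rest on such reads was not tested. The 13 summed to between 21.1 and 31.4 CPM in groups at 100 µM and between 21.5 and 31.0 CPM at 0 µM, which hold no shallow library. Over all groups the sum ran between 16.3 and 57.4 CPM. The median number of detected genes was 13385.5 at 100 µM and 13824.5 at 0 µM under the IL-1β label, and 13963.5 at 100 µM and 13456.5 at 0 µM under the TNF-α label.

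Clustered histone genes supply most of the histone protein that packages newly copied DNA. Their messenger RNAs are unusual among animal messages: the transcript is normally cut just after a conserved stem-loop, held by the stem-loop binding protein Slbp, and it ends there without a poly(A) tail. Such transcripts rise as cells copy their DNA and are destroyed when copying ends. Some of these genes also carry a poly(A) signal farther downstream and can give polyadenylated transcripts, which are known in cells that differentiate or leave the cell cycle. A library made from the poly(A) tail therefore samples the polyadenylated fraction of histone RNA and not its main pool.

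The 3′ ends annotated for the members are shown first, since they bear on what a library primed at the poly(A) tail can read. The 16-base stem-loop was searched in the annotated transcripts (GENCODE, GRCm38) as a stem of 6 base pairs around a loop of 4, and 40 of the 64 members held it. The sequences below give the stem-loop in capitals with 5 bases on each side, 5′ to 3′ on the coding strand. The first 4 genes were the ones with more than 300 annotated bases beyond the loop and the largest differences between inhibitor concentrations, and the last 2 are genes whose annotation ends soon after the loop.
Hist1h1c stem-loop, chr13:23739507-23739532, plus strand: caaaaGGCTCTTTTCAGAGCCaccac
Hist1h4i stem-loop, chr13:22040961-22040986, minus strand: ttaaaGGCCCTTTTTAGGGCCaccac
Hist2h3c1 stem-loop, chr3:96247322-96247347, plus strand: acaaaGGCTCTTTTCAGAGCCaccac
Hist2h3c2 stem-loop, chr3:96238480-96238505, minus strand: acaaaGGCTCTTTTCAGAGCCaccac
Hist1h2ag stem-loop, chr13:22042478-22042503, minus strand: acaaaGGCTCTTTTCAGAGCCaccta
Hist2h2ac stem-loop, chr3:96220413-96220438, minus strand: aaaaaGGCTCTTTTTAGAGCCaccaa

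The most frequent form, shared by Hist1h1c, Hist2h3c1, Hist2h3c2 and Hist1h2ag, stood in 23 members, and the form of Hist1h4i in 2. Distal poly(A) signals, in capitals below, lay in the last 50 annotated bases of 17 members.
Hist1h1c poly(A) signal, chr13:23740330-23740359, plus strand: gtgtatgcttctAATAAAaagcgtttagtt
Hist1h4i poly(A) signal, chr13:22040639-22040668, minus strand: ggttctgtttacATTAAAagtattctatgc
Hist2h3c1 poly(A) signal, chr3:96248475-96248504, plus strand: ttttttaatcccAATAAAaatttaacacac
Hist3h2a poly(A) signal, chr11:58956785-58956814, plus strand: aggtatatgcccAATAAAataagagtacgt

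The annotated transcript of Hist1h1c ran 840 bases past its loop, that of Hist1h4i 330 bases, Hist2h3c1 1167, Hist2h3c2 377, Hist1h1e 1153, Hist3h2a 1643, Hist1h2be 1861 and Hist4h4 2445 bases. Those of Hist2h2ac, Hist1h2ag and Hist1h2ap ended 57, 23 and 3 bases past it. The annotated transcripts of Hist1h1a, Hist1h1b and Hist1h2bc held no stem-loop. That of Hist1h2bc is spliced and has 2 exons.

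Promoters were looked up in RefSeq (GRCm38.p6, 250 bases before to 50 bases after the start), where 57 members had an entry. The letters CCAAT, read on both strands, stood in 49 of these 57 promoters and in 37.4% of 32851 promoters of all genes. TATAAA stood in 33 of the 57 and in 13.6% of all promoters, and ATTTGCAT, the octamer, in 12 and 1.74%. A loose form of the NF-κB motif, GGG and CC with any 5 bases between them, stood in 16 and 50.8%. A match says only that the letters are in the window. The promoter of Hist1h1c, the member with the most counts, is shown with its CCAAT in capitals.
Hist1h1c promoter, chr13:23738557-23738856, plus strand: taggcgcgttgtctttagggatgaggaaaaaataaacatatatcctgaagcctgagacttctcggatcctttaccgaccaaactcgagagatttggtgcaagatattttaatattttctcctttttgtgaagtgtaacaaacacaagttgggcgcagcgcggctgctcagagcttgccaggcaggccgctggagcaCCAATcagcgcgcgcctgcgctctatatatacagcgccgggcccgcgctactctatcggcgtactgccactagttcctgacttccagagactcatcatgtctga

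Of the 64 members, 14 passed the filter on low counts (at least 7.80 CPM, equal to 10 counts in a library of median size, in at least 4 libraries) and entered the tests. They held 95.6% of all counts of the 64. Only 9 of the 14 would have passed on the 44 libraries without inhibitor alone. Hist2h3c1 and Hist2h3c2 reached 7.80 CPM in 0 of those 44 libraries and passed through inhibitor-treated libraries, and Hist1h2be, Hist2h2ac and Hist4h4 reached it there in 3, 3 and 1. No count over the 14 is a count over all members for that reason. Of the 14, 11 held the stem-loop, and 8 of these ran more than 300 bases past it. Among the 50 members that did not pass, 29 held the loop and 9 ran more than 300 bases past it, and a poly(A) signal stood in 6 of the 14 and in 11 of the 50.

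The summed level of the 64 genes was described first. At 60 min under the IL-1β label the libraries numbered 1 to 4 had 863, 1009, 694 and 923 CPM at 100 µM, against 269.9, 289.9, 286 and 200.5 CPM at 0 µM. Those of the TNF-α label had 684, 783, 919 and 864 CPM at 100 µM, against 275, 284, 431 and 347 CPM at 0 µM. The groups did not overlap under either label. The unstimulated libraries had 254, 245, 247 and 205 CPM.

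The mean level was graded with concentration. At 60 min under the IL-1β label it averaged 262 ± 41.7, 329.7 ± 51.3, 439 ± 53.7 and 872 ± 133 CPM at 0, 25, 50 and 100 µM (SD, n = 4 each). The corresponding means under the TNF-α label were 334 ± 72.0, 383 ± 117, 461 ± 109 and 812 ± 103 CPM. The step between 50 and 100 µM was the largest under both labels at 60 min, and the 25 µM and 0 µM groups overlapped there. Under the TNF-α label the 50 µM and 0 µM groups overlapped too at 60 min, as at 30, 120 and 360 min, and were apart only at 15 min. The 25 µM group overlapped the 0 µM group at every time under that label. Under the IL-1β label the 50 µM group was apart from 0 µM at every time, and the 25 µM group at 15 and 120 min only.

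The ratio of the mean at 100 µM to that at 0 µM was 3.45, 3.06, 3.33, 3.84 and 1.52 at 15, 30, 60, 120 and 360 min under the IL-1β label. It was 2.90, 2.61, 2.43, 3.08 and 1.55 under the TNF-α label. At 360 min the sum was 368, 381, 334 and 338 CPM at 100 µM, against 228, 247, 266 and 192 CPM at 0 µM, under the IL-1β label. It was 434, 342, 599.7 and 507 CPM at 100 µM, against 268, 228, 405 and 312 CPM at 0 µM, under the TNF-α label. The 2 groups overlapped at 360 min under the TNF-α label and not under the IL-1β label. In these bulk libraries fewer cells of a kind and less RNA per cell cannot be told apart.

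**Figure D1:**
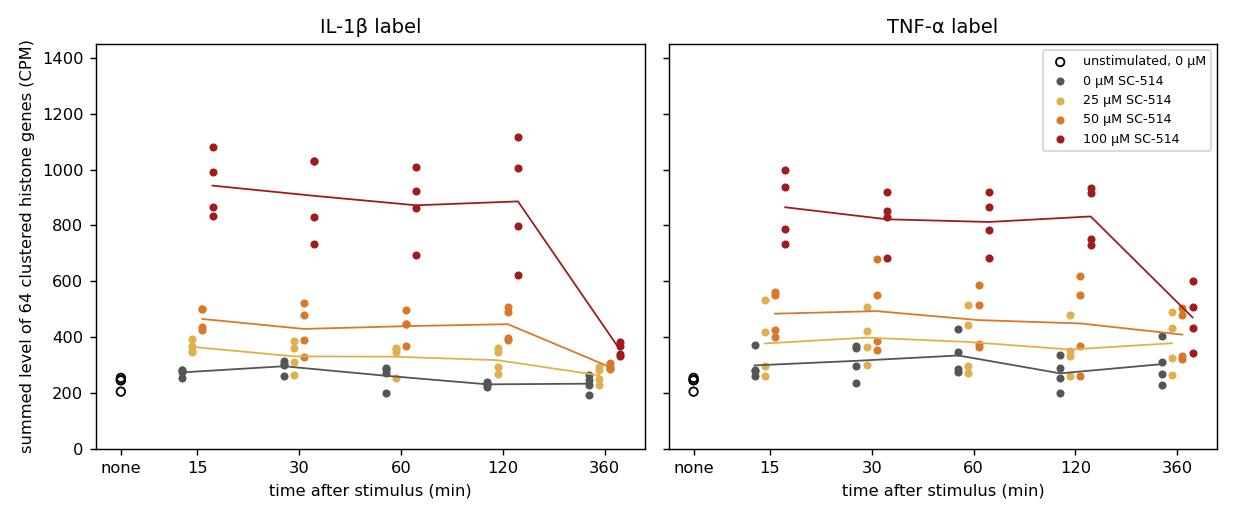
Summed level of the 64 clustered histone genes in CPM (vertical axis) against time after the stimulus in min (horizontal axis), 1 point per library and lines through group means, with SC-514 concentration in colour and the unstimulated libraries as open circles. The 100 µM libraries lay above all 0 µM libraries between 15 and 120 min under both labels, and at 360 min the mean was 356 CPM against 233 CPM (IL-1β label) and 471 CPM against 303 CPM (TNF-α label).

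The families contributed unequally to the sum. At 60 min under the IL-1β label H1 genes summed to 445 ± 75.2 CPM at 100 µM and 114 ± 23.7 CPM at 0 µM (SD, n = 4 each). H2B genes summed to 232 ± 41.9 CPM at 100 µM and 43.5 ± 7.23 CPM at 0 µM, H4 genes to 60.4 ± 13.4 CPM and 16.5 ± 4.96 CPM, and H3 genes to 39.1 ± 12.2 CPM and 8.09 ± 1.73 CPM. H2A genes summed to 95.7 ± 14.4 CPM at 100 µM and 79.8 ± 16.4 CPM at 0 µM, and these groups overlapped. Over the 5 times and both labels the H2A ratio ran between 0.883 (IL-1β label, 360 min) and 1.85 (TNF-α label, 120 min). The H2A groups did not overlap at 30 min under the IL-1β label (1.40-fold) and at 15, 30 and 120 min under the TNF-α label (1.33-fold, 1.40-fold and 1.85-fold). TagSeq reads 1 fragment region per transcript, so CPM were used here without division by length. Sums over genes and the order of families or genes are given in this unit, as shares of reads.

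The per-gene comparisons used edgeR's quasi-likelihood test on all 10766 genes that passed the filter, with Benjamini-Hochberg adjustment over all of them and a threshold of 0.05. The test over 5 times asks whether a gene differs at any of them, and its direction here is that of the mean of the 5 log2 differences. The calls between inhibitor concentrations rest on the values that selected the group, and 5 of the 14 members passed the filter only with inhibitor-treated libraries, so these counts are a description and no test of the members. For 100 µM against 0 µM under the IL-1β label, 8 of 14 members were called, all higher at 100 µM, where 55.3% of all genes were called. Under the TNF-α label 10 of 14 were called, all higher at 100 µM, against 50.3% of all genes. The members' median log2 difference was 0.89 (IL-1β label) and 0.86 (TNF-α label), and that of all genes was 0.03 and 0.02. At 50 µM 10 members were called under the IL-1β label (8 higher, 2 lower; 40.0% of all genes), and 6 under the TNF-α label (6 higher; 35.9%). At 25 µM 3 were called under the IL-1β label (2 higher, 1 lower; 28.7%) and 2 under the TNF-α label (2 higher; 23.8%).

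Linker histones bind the DNA between nucleosomes, and 4 H1 genes passed the filter. Hist1h1c had 278, 345, 229 and 321 CPM at 100 µM, against 36.7, 43.4, 40.4 and 25.0 CPM at 0 µM, at 60 min under the IL-1β label. It had 228, 284, 306 and 335 CPM at 100 µM, against 34.5, 24.2, 62.6 and 41.6 CPM at 0 µM, under the TNF-α label. Every 100 µM library was above every 0 µM library. The log2 difference was 2.96 (SE 0.28) and 2.77 (SE 0.29), or 7.76-fold and 6.82-fold. Hist1h1c was the only member whose group means followed the order of the 4 concentrations at all 4 times between 15 and 120 min under both labels. At 60 min they were 36.4, 76.5, 116 and 293 CPM (IL-1β label) and 40.7, 82.9, 127 and 288 CPM (TNF-α label) at 0, 25, 50 and 100 µM.

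Hist1h1e, another linker histone gene, had 93.9, 132, 101 and 122 CPM at 100 µM, against 55.7, 66.0, 52.5 and 38.5 CPM at 0 µM, at 60 min under the IL-1β label. It had 85.9, 74.2, 165 and 105 CPM at 100 µM, against 55.2, 58.9, 96.6 and 70.2 CPM at 0 µM, under the TNF-α label. The groups were apart under the IL-1β label and overlapped under the TNF-α label. The log2 difference was 1.02 (SE 0.26) and 0.54 (SE 0.25). All 50-base words of the last 300 bases of its transcript also occur in Hist1h2be or Gm11398, which overlap it on the same strand, so the values of Hist1h1e and Hist1h2be are uncertain as values of single genes.

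Hist1h1a had 6.71, 31.0, 18.7 and 10.2 CPM at 100 µM, against 3.67, 9.43, 8.74 and 4.05 CPM at 0 µM, at 60 min under the IL-1β label. It had 14.4, 9.48, 15.8 and 7.67 CPM at 100 µM, against 5.37, 4.53, 7.43 and 3.46 CPM at 0 µM, under the TNF-α label. The IL-1β groups overlapped and the TNF-α groups were just apart. The log2 difference was 1.25 (SE 0.42) and 1.08 (SE 0.48). Hist1h1b averaged 22.4 ± 7.48 CPM at 100 µM and 17.6 ± 3.33 CPM at 0 µM under the IL-1β label, and 22.4 ± 7.01 CPM and 28.2 ± 9.94 CPM under the TNF-α label (SD, n = 4 each). It was called at no concentration.

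**Figure D2:**
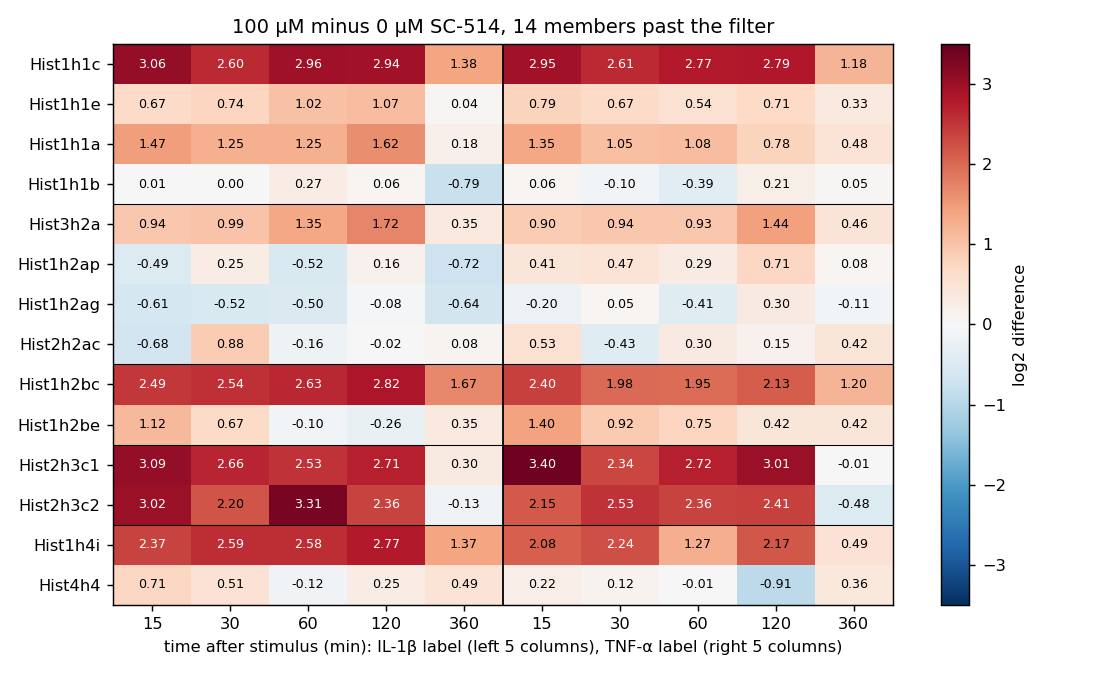
Log2 differences, 100 µM minus 0 µM SC-514, for the 14 members that passed the filter (rows, grouped as H1, H2A, H2B, H3 and H4 genes) at 15 to 360 min under the IL-1β label (left 5 columns) and the TNF-α label (right 5 columns). Hist1h1c, Hist1h2bc, Hist2h3c1, Hist2h3c2 and Hist1h4i lay at 1.27 or more between 15 and 120 min, and the values at 360 min were smaller for each of these 5 under both labels.

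Among H2A genes, which encode a core histone that pairs with H2B, Hist3h2a stood apart. It had 61.7, 48.7, 41.2 and 45.8 CPM at 100 µM, against 17.8, 15.1, 24.2 and 18.9 CPM at 0 µM, at 60 min under the IL-1β label. It had 31.5, 38.7, 48.1 and 42.7 CPM at 100 µM, against 18.4, 23.4, 18.04 and 18.2 CPM at 0 µM, under the TNF-α label. The groups did not overlap, and the log2 difference was 1.35 (SE 0.20) and 0.93 (SE 0.21). Its annotated region overlaps Trim17 on the same strand and Gm44313 on the other strand, and without a statement on strand in the sources their reads cannot be told apart.

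Hist1h2ap and Hist1h2ag, whose annotated ends lie 3 and 23 bases past the stem-loop, did not share this direction at 60 min under the IL-1β label. Hist1h2ap had 19.5, 26.6, 15.0 and 22.9 CPM at 100 µM, against 25.7, 29.6, 41.7 and 19.6 CPM at 0 µM, at 60 min under the IL-1β label. It had 61.0, 46.6, 82.4 and 60.9 CPM at 100 µM, against 46.8, 41.6, 59.4 and 45.9 CPM at 0 µM, under the TNF-α label. The groups overlapped under both labels, and the log2 difference was -0.52 (SE 0.32) and 0.29 (SE 0.25).

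Hist1h2ag had 10.7, 19.5, 10.3 and 15.3 CPM at 100 µM, against 19.0, 23.9, 18.2 and 14.2 CPM at 0 µM, at 60 min under the IL-1β label. It had 32.1, 22.1, 34.3 and 20.1 CPM at 100 µM, against 37.6, 24.9, 31.8 and 39.0 CPM at 0 µM, under the TNF-α label. These groups overlapped too, with log2 differences of -0.50 (SE 0.32) and -0.41 (SE 0.26). Both genes were lower among the calls at 50 µM under the IL-1β label, with mean log2 differences over 5 times of -0.64 for Hist1h2ap and -0.77 for Hist1h2ag, and Hist1h2ag also at 25 µM (-0.57). In contrast, the 10 members called higher at 100 µM over 5 times under the TNF-α label included Hist1h2ap, though not Hist1h2ag. With counts pooled over both labels, Hist1h2ap was at 45.6 CPM at 100 µM and 34.2 CPM without inhibitor, and Hist1h2ag at 21.4 and 21.9 CPM. Hist2h2ac averaged 4.32 ± 0.584 CPM at 100 µM and 4.66 ± 2.94 CPM at 0 µM under the IL-1β label (SD, n = 4 each), and was called at no concentration. All of the last 300 bases of Hist1h2ap, 70.1% of those of Hist1h2ag and 49.8% of those of Hist2h2ac, counted as 50-base words, also occur in other genes, mostly other H2A copies, so these 3 values are uncertain as values of single genes.

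Hist1h2bc was the leading H2B gene. It had 250.3, 244, 163.8 and 229.9 CPM at 100 µM, against 44.1, 29.6, 37.0 and 27.7 CPM at 0 µM, at 60 min under the IL-1β label. It had 119, 180.1, 137 and 156 CPM at 100 µM, against 21.5, 26.4, 48.8 and 50.2 CPM at 0 µM, under the TNF-α label. The groups were far apart under both labels, and the log2 difference was 2.63 (SE 0.23) and 1.95 (SE 0.25).

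Hist1h2be was near the floor. It had 9.39, 0.886, 1.87 and 5.09 CPM at 100 µM, against 6.73, 5.66, 2.69 and 4.05 CPM at 0 µM, at 60 min under the IL-1β label. It had 8.53, 7.11, 5.49 and 6.72 CPM at 100 µM, against 2.30, 5.29, 3.18 and 4.33 CPM at 0 µM, under the TNF-α label. The groups overlapped under the IL-1β label and were apart under the TNF-α label, with log2 differences of -0.10 (SE 0.41) and 0.75 (SE 0.41).

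The H3 genes Hist2h3c1 and Hist2h3c2 were almost unread without inhibitor. Hist2h3c1 had 26.8, 21.3, 14.04 and 31.4 CPM at 100 µM, against 3.06, 2.52, 4.04 and 6.07 CPM at 0 µM, at 60 min under the IL-1β label. It had 15.1, 22.1, 15.8 and 15.8 CPM at 100 µM, against 0.767, 3.78, 0 and 4.33 CPM at 0 µM, under the TNF-α label. The groups did not overlap under either label. The log2 difference was 2.53 (SE 0.30) and 2.72 (SE 0.37). The last 300 bases of Hist2h3c1 are shared in full with Gm20634, which overlaps it on the same strand.

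Hist2h3c2 had 13.4, 7.97, 9.36 and 18.7 CPM at 100 µM, against 1.22, 1.26, 0.673 and 1.35 CPM at 0 µM, at 60 min under the IL-1β label. It had 6.56, 19.7, 3.43 and 10.1 CPM at 100 µM, against 1.53, 1.51, 2.12 and 1.73 CPM at 0 µM, under the TNF-α label. The 4 libraries at 0 µM together held only 7 counts under the IL-1β label and 8 under the TNF-α label, so the fitted log2 differences of 3.31 (SE 0.49) and 2.36 (SE 0.50) depend on few reads. Both H3 genes passed the filter through inhibitor-treated libraries, which favours genes that are higher there, so their differences are a description only.

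Of the H4 genes, Hist1h4i had 45.0, 62.0, 33.7 and 52.6 CPM at 100 µM, against 11.02, 9.43, 4.71 and 5.40 CPM at 0 µM, at 60 min under the IL-1β label. It had 24.3, 41.1, 30.2 and 40.8 CPM at 100 µM, against 6.90, 12.1, 18.04 and 17.3 CPM at 0 µM, under the TNF-α label. The groups were apart under both labels, and the log2 difference was 2.58 (SE 0.25) and 1.27 (SE 0.25). Hist4h4, the single gene of its cluster, averaged 4.32 ± 2.05 CPM at 100 µM and 4.31 ± 1.41 CPM at 0 µM under the IL-1β label, and 3.55 ± 0.801 CPM and 3.40 ± 1.13 CPM under the TNF-α label (SD, n = 4 each). It was called at no concentration. Its annotated transcript runs 2445 bases past the loop and has a poly(A) signal near its end.

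**Figure D3:**
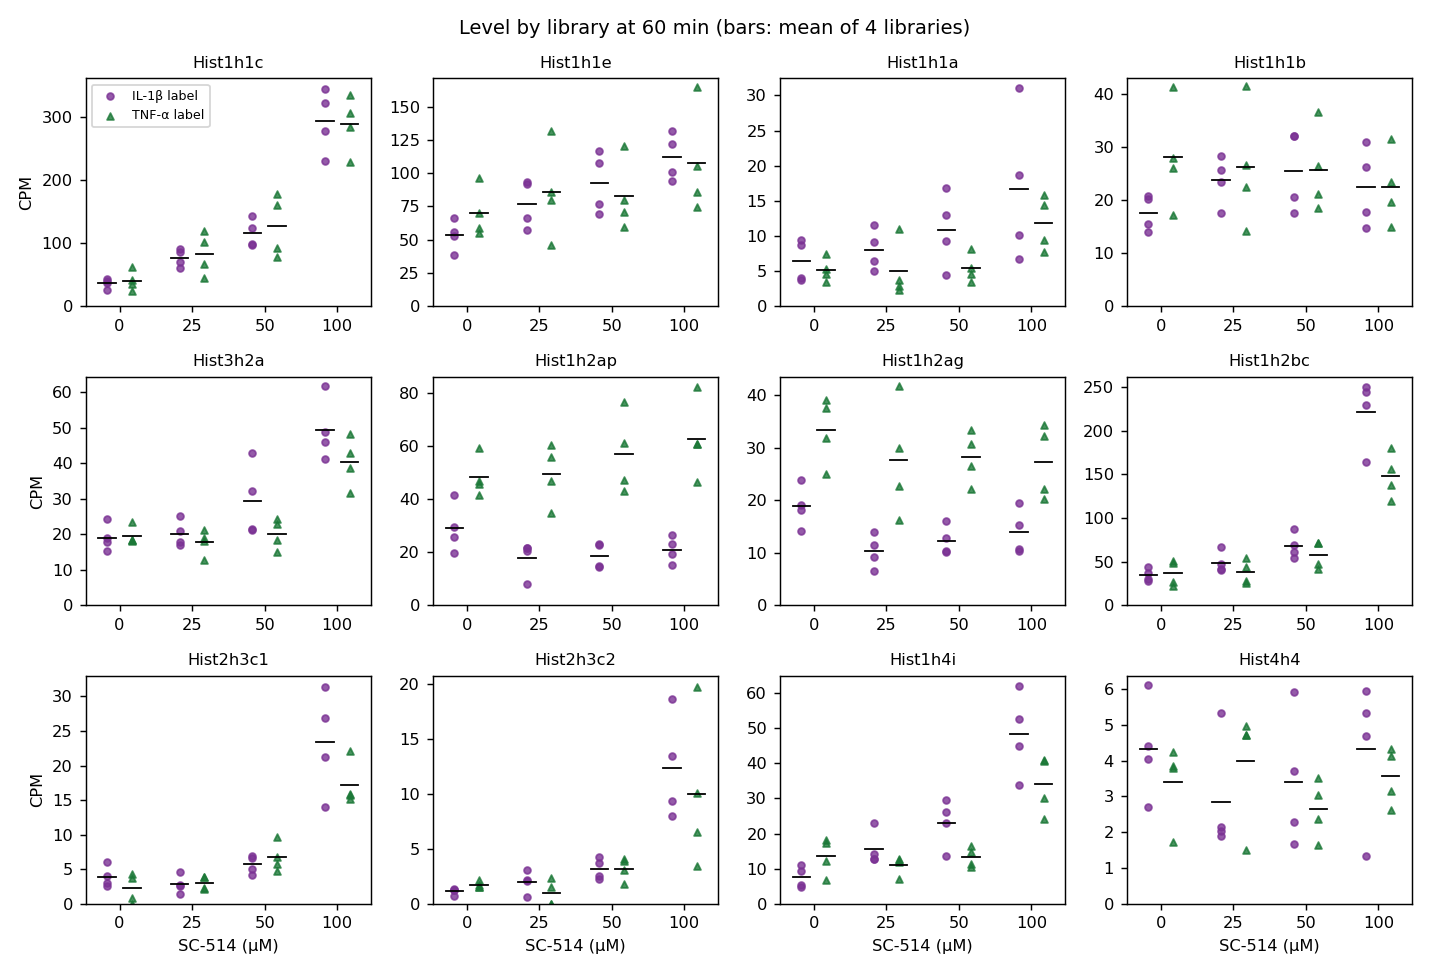
Levels in CPM (vertical axes) of 12 members against SC-514 concentration in µM at 60 min, 1 point per library, with bars at the mean of 4 libraries. For Hist1h1c, Hist1h2bc, Hist2h3c1, Hist2h3c2, Hist1h4i and Hist3h2a the 100 µM libraries lay above the 0 µM libraries under both labels, whereas the groups of Hist1h1b, Hist1h2ap, Hist1h2ag and Hist4h4 overlapped.

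Set against the annotated 3′ ends, the 3 tested members that end within 57 bases of the loop had log2 differences between -0.52 and 0.30 at 60 min over both labels. The 8 that run more than 300 bases past it ranged between -0.12 and 3.31, with Hist1h2be and Hist4h4 at the low end. The 3 without an annotated loop ranged between -0.39 (Hist1h1b) and 2.63 (Hist1h2bc). These ranges hold for 60 min only. Averaged over all times, Hist1h2ap was at 0.39 under the TNF-α label, where it was called higher with the inhibitor. Under the IL-1β label it was at -0.26 and not called. Hist1h2ag was at -0.47 (IL-1β label) and -0.07 (TNF-α label), and Hist2h2ac at 0.02 and 0.20, with no call for either gene. The comparison with the 3′ ends is a description over 14 genes that share libraries and in part sequence.

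**Figure D4:**
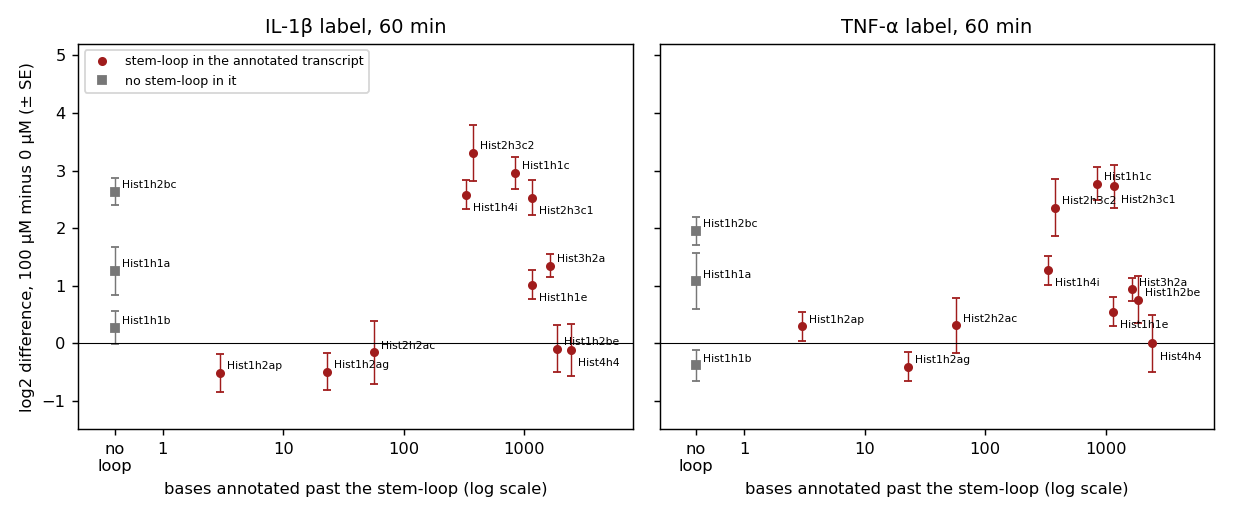
Log2 difference, 100 µM minus 0 µM at 60 min (vertical axis, bars ± SE), against the number of annotated bases past the stem-loop on a log scale (horizontal axis); red circles mark members with a stem-loop and grey squares those without one. Hist1h2ap, Hist1h2ag and Hist2h2ac, at 3, 23 and 57 bases, lay between -0.52 and 0.30, and the genes beyond 300 bases spread between -0.12 and 3.31.

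The difference between 100 µM and 0 µM was smaller at 360 min. There 3 of 14 members were called under the IL-1β label, all higher at 100 µM (29.5% of all genes), and 2 under the TNF-α label, both higher (26.8%). Hist1h2bc had 125, 84.8, 87.7 and 103 CPM at 100 µM, against 38.9, 26.9, 25.3 and 26.8 CPM at 0 µM, under the IL-1β label (log2 difference 1.67, SE 0.27). It had 76.4, 71.3, 80.4 and 77.2 CPM at 100 µM, against 24.3, 26.2, 31.5 and 39.3 CPM at 0 µM, under the TNF-α label (1.20, SE 0.27). Hist1h2bc thus remained apart at 360 min under both labels.

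Hist1h1c had 63.6, 79.6, 47.1 and 77.3 CPM at 100 µM, against 24.1, 26.1, 19.8 and 26.02 CPM at 0 µM, at 360 min under the IL-1β label. It had 65.0, 47.7, 137 and 106 CPM at 100 µM, against 25.9, 24.3, 51.0 and 42.9 CPM at 0 µM, under the TNF-α label. Its log2 difference was 1.38 (SE 0.38) and 1.18 (SE 0.32), and the groups overlapped under the TNF-α label. Hist1h4i was called at 360 min under the IL-1β label (1.37, SE 0.34), with 0.49 (SE 0.30) under the TNF-α label.

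The H3 genes lay near their 0 µM level at 360 min. Hist2h3c1 had 3.53, 3.498, 4.96 and 6.60 CPM at 100 µM, against 2.33, 2.30, 3.96 and 5.52 CPM at 0 µM, under the IL-1β label. It had 3.25, 1.57, 4.79 and 4.95 CPM at 100 µM, against 3.92, 2.91, 2.78 and 3.65 CPM at 0 µM, under the TNF-α label. The groups overlapped, with log2 differences of 0.30 (SE 0.45) and -0.01 (SE 0.45). Hist2h3c2 was at -0.13 (SE 0.60) and -0.48 (SE 0.58).

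The 100 µM difference at 360 min minus that at 15 min is also given as a description. The comparison was chosen after these values were seen, it rests on the contrast that selected the group, and Hist2h3c1 and Hist2h3c2 entered it only through inhibitor-treated libraries. It was called lower for 3 of 14 members under the IL-1β label (7.21% of all genes called) and for 5 under the TNF-α label (5.32%), and higher for 0 members under both. The change in log2 difference was -2.79 (SE 0.61) and -3.41 (SE 0.65) for Hist2h3c1, -3.15 (SE 0.78) and -2.63 (SE 0.79) for Hist2h3c2, and -1.68 (SE 0.50) and -1.77 (SE 0.47) for Hist1h1c under the IL-1β and the TNF-α label. Hist1h4i (-1.59, SE 0.43) and Hist1h2bc (-1.21, SE 0.39) were called under the TNF-α label. Without replicate 1 of every group 1 member was called under the IL-1β label, and without replicate 2, 3 or 4 there were 1, 3 and 2 calls under the TNF-α label. The share of all genes called in these smaller fits is not set beside the counts, which show only how the calls depend on the libraries. Within the 100 µM libraries, 360 min minus 15 min was -2.39 (SE 0.31) and -2.59 (SE 0.29) for Hist2h3c1, and within the 0 µM libraries it was 0.40 (SE 0.49) and 0.82 (SE 0.57). For Hist1h1c it was -2.28 (SE 0.26) and -1.70 (SE 0.23) at 100 µM, and -0.60 (SE 0.41) and 0.07 (SE 0.40) at 0 µM.

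Stimulation without inhibitor was set against the unstimulated group, whose 4 libraries serve both labels. Under the IL-1β label 2 of 14 members were called over the 5 times (1 higher, 1 lower), where 23.5% of all genes were called. At 360 min alone 0 were called (21.7% of all genes); edgeR gave 0 members with an unadjusted p under 0.05 there, and DESeq2 called 0. Under the TNF-α label 0 were called over the 5 times (19.7%), with 2 at an unadjusted p under 0.05. At 360 min 0 were called (5.42%), with 2 at an unadjusted p under 0.05 and 1 called by DESeq2.

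The calls under the IL-1β label were Hist1h2be (mean log2 difference -0.26, adjusted p = 0.0168 by edgeR's quasi-likelihood test) and Hist3h2a (0.07, adjusted p = 0.0382). Hist3h2a averaged 23.8 ± 2.64, 26.2 ± 6.52, 19.0 ± 3.83, 14.1 ± 1.195 and 19.3 ± 4.98 CPM at 15, 30, 60, 120 and 360 min, and 19.8 ± 3.64 CPM unstimulated (SD, n = 4 each). It was thus above the unstimulated mean early and below it at 120 min. Without replicate 1, 3 or 4 Hist3h2a was not called, and without replicate 2 or 4 Hist1h2be was not called. The same genes were the 2 calls over time at 0 µM under the IL-1β label, by 360 minus 15 min 1 higher and 1 lower (19.3% of all genes), with adjusted p = 0.0102 for Hist1h2be (not called without replicate 2 or 4) and 0.0250 for Hist3h2a (not called without replicate 1 or 4). Under the TNF-α label 1 member was called over time (17.4%), Hist1h2be with adjusted p = 0.0466, and it was not called without any 1 of the 4 replicate numbers.

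Between the labels without inhibitor, 2 of 14 members were called, both lower under the IL-1β label, where 9.56% of all genes were called. At 60 min Hist1h2ag had 19.0, 23.9, 18.2 and 14.2 CPM under the IL-1β label, against 37.6, 24.9, 31.8 and 39.0 CPM under the TNF-α label. Over the 5 times its mean log2 difference was -0.60 (adjusted p = 0.00739 by edgeR's quasi-likelihood test) and that of Hist1h2ap was -0.78 (adjusted p = 0.000174). At 360 min Hist1h2ap had 21.8, 21.5, 26.1 and 18.1 CPM under the IL-1β label, against 43.1, 30.1, 67.7 and 48.4 CPM under the TNF-α label. Without replicate 1 neither gene was called (adjusted p = 0.258 for Hist1h2ag and 0.0789 for Hist1h2ap by the same edgeR test), and Hist1h2ag was not called without replicate 3 (0.0842) or 4 (0.0644) either. Whether the 100 µM difference differed between the labels was tested directly and 0 members were called (4.68% of all genes), with 2 at an unadjusted p under 0.05.

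The libraries of the TNF-α label also differed by number. Library number 3 had the highest summed level in 20 of 20 groups, and numbers 3 and 4 were both above numbers 1 and 2 in 19 of 20. Under the IL-1β label number 3 was highest in 3 of 20 groups, and numbers 3 and 4 were both above 1 and 2 in 0. What the numbers stand for is not given in the sources used here, and their part in the results was not tested beyond the fit with number as a block given in the closing section.

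The 50 members that did not pass the filter held between 2 and 444 counts each over all libraries. Their sum averaged 24.2 ± 4.97 CPM at 100 µM and 20.1 ± 3.73 CPM at 0 µM at 60 min under the IL-1β label, and 25.5 ± 6.47 CPM and 21.3 ± 6.09 CPM under the TNF-α label (SD, n = 4 each), with overlapping groups. At other times their 100 µM libraries lay above all 0 µM libraries, at 15 and 120 min under the IL-1β label (1.66-fold and 1.91-fold) and at 30 and 120 min under the TNF-α label (1.199-fold and 1.505-fold). With counts pooled over the 40 libraries at 100 µM and the 44 without inhibitor, 38 of the 50 had the higher CPM at 100 µM. The share of all genes that were higher by this measure was not computed, so the 38 are no result about the members. Some of these differences rest on few reads, as for Hist2h2aa2 (10 counts, 0.0362 CPM at 100 µM and 0.0352 CPM without inhibitor). Hist1h4h, an H4 gene, was at 2.44 CPM pooled over 100 µM and 1.02 CPM without inhibitor, while Hist1h2an, the H2A gene with the most counts among the 50, was at 1.79 CPM and 1.97 CPM. Single members among the 50 are at or under the floor in most libraries, and 35 of the 64 members share more than 50% of their last 300 bases with another gene.

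The other histone genes were described next. Replication-independent histone genes are spread over the genome, have introns or a poly(A) tail, and replace histones outside DNA replication. Of 11 tested, 6 rose and 1 fell at 100 µM under the IL-1β label, and 7 rose and 1 fell under the TNF-α label. Their median log2 difference was 0.25 and 0.24. In these comparisons 55.3% (IL-1β label) and 50.3% (TNF-α label) of all genes were called. H1f0, the linker histone of resting and differentiated cells, had 319, 445, 328 and 362 CPM at 100 µM, against 100.4, 111, 128 and 109 CPM at 0 µM, at 60 min under the IL-1β label. Its mean log2 difference over 5 times was 1.55 (IL-1β label) and 1.63 (TNF-α label). H3f3b, which encodes the replacement histone H3.3, rose by 0.74 and 0.61 on the log2 scale, and H2afy, which encodes macroH2A, fell by 0.52 and 0.39. H2afz, which encodes H2A.Z, was at -0.01 (adjusted p = 0.244) and -0.04 (adjusted p = 0.522).

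The genes whose level over the 41 groups was most like the summed clustered histone level were H1f0 (Pearson r = 0.938 on log2 group means), H3f3b (0.932), Gadd45g (0.915), H2afx (0.906) and Zc3h6 (0.895). Among members the same measure was 0.967 for Hist1h1c, 0.943 for Hist1h2bc, 0.0450 for Hist1h2ag and 0.0950 for Hist4h4. These r describe 41 groups that share the concentration series and carry no test. Gadd45g, a growth arrest gene, averaged 58.1 CPM over the 8 groups at 100 µM between 15 and 120 min and 18.4 CPM at 0 µM.

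Genes that act on histone RNA and on DNA replication did not move in 1 direction at 100 µM, where 55.3% (IL-1β label) and 50.3% (TNF-α label) of all genes were called. Of 21 tested genes for the 3′ processing and turnover of histone RNA, 6 rose and 8 fell under the IL-1β label, and 4 rose and 8 fell under the TNF-α label, with a median of -0.07 under both. Slbp, which binds the stem-loop, had 146, 170.0, 141 and 170.5 CPM at 100 µM, against 109.6, 103, 102 and 131 CPM at 0 µM, at 60 min under the IL-1β label, and rose by 0.33 (IL-1β label) and 0.51 (TNF-α label) on the log2 scale over 5 times. The cap-binding gene Ncbp1 fell by 0.57 under the IL-1β label. Of 17 cleavage and polyadenylation genes, 1 rose and 8 fell under the IL-1β label, and 3 rose and 5 fell under the TNF-α label. Among them Pcf11, a termination factor, rose by 0.35 and 0.42, and Cpsf6 fell by 0.32 and 0.26.

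Of 28 DNA replication genes, 2 rose and 7 fell at 100 µM under the IL-1β label (median -0.06), and 5 rose and 1 fell under the TNF-α label (median 0.10). Mcm2, a subunit of the replicative helicase, fell by 0.32 under the IL-1β label, and E2f1, an S-phase transcription factor, rose by 0.34 under the TNF-α label. Mki67, a marker of cycling cells, was at 0.06 (adjusted p = 0.229) and 0.20 (adjusted p = 0.488). Of 18 histone chaperone genes, 1 rose and 7 fell under the IL-1β label, and 3 rose and 6 fell under the TNF-α label, where Ubn1, part of the chaperone complex for H3.3, rose by 0.93 and 0.92. Over all genes 55.3% and 50.3% were called in these comparisons, and the median of all genes was 0.03 and 0.02.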

How the data were processed

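The deposited table holds counts of reads per Ensembl gene in 164 libraries. Reads were aligned with Bowtie2 to GRCm38/mm10, per the submitters' processing notes; for the counter, its annotation and its use of strand no source used here gives a name. Symbols were matched in GENCODE for 21878 of 22070 IDs; 192 had no match. Levels (CPM) are counts over the library total, on 1 common scale. Counts were fitted with edgeR 4.0.16 in R 4.3.3 (filterByExpr by group, TMM factors, robust quasi-likelihood, 41 groups in 1 model, 123 residual degrees of freedom). P-values were adjusted over 10766 genes. Dispersion corresponded to a biological coefficient of variation of 0.0799. DESeq2 1.42.0 was an alternative for 5 groups. The test was tested on simulated data for 100 against 0 µM at 360 min under the IL-1β label over 10727 genes. There 90.0% of genes changed by a log2 of 1 and 99.0% of those changed by 2 were recovered, and 6 of 195 calls were false. Changes were placed only in genes with a mean of more than 10 counts per library. The recovery was therefore not measured for members under that level, such as Hist4h4 (873 counts over all libraries) and Hist2h3c2 (906). The members and the gene lists were chosen with earlier results of these data known. Every member past the filter is named, with values by library for up to 12 members called in any comparison with at least 5 CPM in the higher group, up to 4 genes per list by adjusted p, the 5 genes most alike over groups, and Slbp, Mki67, H2afz and H3f3b. The 4 counts per group were checked against each other: 0 of 246 pairs of libraries were identical, and chi-square per degree of freedom was 1.08 to 5.49 between deep libraries. The comparison of the 100 µM difference at 360 and 15 min was added after the data were seen.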

Additional observations from a re-analysis of the deposited data

Results flagged for a closer look

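Over 129 groups of 4 values that were checked for a sample far from the others, 5 had one, and chance alone gives about 1 in 20 groups. The summed clustered histone level had a low library at 253 CPM under the IL-1β label at 25 µM and 60 min. Hist1h2bc had a high library at 38.9 CPM and Hist2h3c2 one at 7.001 CPM at 0 µM and 360 min under the IL-1β label. Hist2h3c1 had a high library at 22.1 CPM at 100 µM and 60 min, and Hist3h2a one at 23.4 CPM at 0 µM and 60 min, both under the TNF-α label.

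The fitted difference between 100 µM and 0 µM was smaller at 360 min than at 15 min for several members. The comparison was chosen after the values were seen and uses the contrast that selected the group, and Hist2h3c1 and Hist2h3c2 reached the filter level in 0 of 44 libraries without inhibitor, so the values are a description. Under the IL-1β label the change in log2 difference was -2.79 for Hist2h3c1, -3.15 for Hist2h3c2 and -1.68 for Hist1h1c. Under the TNF-α label it was -3.41 for Hist2h3c1, -1.77 for Hist1h1c, -1.59 for Hist1h4i, -2.63 for Hist2h3c2 and -1.21 for Hist1h2bc.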

How the results depend on the processing

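Single-gene values under alternatives were kept only for members called in the main fit, in the comparison concerned. They include the comparisons between inhibitor concentrations, and calls gained under an alternative are not among them. Of 536 such values, 469 kept their direction and their side of the threshold, 64 kept only their direction and 3 changed sign. The 3 were Hist3h2a in the IL-1β label against unstimulated (-0.028 without replicate 3, -0.021 without replicate 4, and up to 0.23 without replicate 2) and Hist1h2be at 50 µM under the IL-1β label (-0.14 without replicate 3, and up to 0.36 without replicate 2). With no filter on low counts, which admits all 64 members, calls were 5, 1 and 4 for the IL-1β label against unstimulated over 5 times, at 360 min and over time, 6, 13 and 5 for 25 µM, 100 µM and 100 µM at 360 min, 4 and 3 for the TNF-α label against unstimulated over 5 times and at 360 min, 5 for 25 µM under the TNF-α label, 4 between labels, 4 for the contrast of both labels in the 100 µM effect and 5 for its change with time under the IL-1β label. For 25 µM under the TNF-α label 1 call was left with RLE factors, 1 with the replicate block and 1 without the 2 IL-1β 100 µM libraries of number 1 at 120 and 360 min (chosen after seeing the data); Hist1h4i was the call lost. DESeq2 called 1 member in the TNF-α label against unstimulated at 360 min. The cause of these shifts was not tested. Counts without the filter are out of 64 members and not 14, so they cannot be compared with the main counts as shares. The share of all genes called is not set beside the counts of this section. They describe only how the counts depend on the processing.

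Leaving out 1 replicate number of every group gave 0 to 1 calls for the IL-1β label against unstimulated over 5 times, 0 to 2 over time, 0 for the TNF-α label over time, 1 to 2 for 25 µM under the TNF-α label, 0 to 2 between labels, 0 to 2 for the contrast of both labels in the 100 µM effect, 1 to 3 for its change with time under the IL-1β label and 1 to 4 under the TNF-α label. For 100 against 0 µM over 5 times it gave 8 to 10 calls (IL-1β label) and 7 to 10 (TNF-α label). Same-numbered libraries did not deviate together by the rule used: in 0 of 20 comparisons did all 4 pairs correlate above 0.1 (mean 0.0300). Yet 140 of 158 libraries were closest to their own number, so libraries within a label did group by number. This is seen in the data and not stated in the design, and the main fit has no term for number. Under the replicate block, 100 against 0 µM gave 8 (IL-1β label) and 10 calls (TNF-α label). The summed level at 60 min stayed within 1 SD under the TMM effective library size, with tested members alone and without each replicate. Without the 2 shallow libraries no count of calls changed by over 1.5 times. Depth limits the 50 untested members, with 2 to 444 counts each over all libraries, and Hist2h3c2.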
